A study of Mus musculus with 6 samples.

Results

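The miR-199 and miR-214 microRNAs were the 5 of 1028 rows of the count table named miR-199a, miR-199b or miR-214: miR-199a-5p, miR-199a-3p, miR-199b-5p, miR-214-5p and miR-214-3p. The rule for members uses names and no measured values, and all 5 passed the filter on low counts, which left 460 microRNAs. The data are small-RNA sequencing counts from a mouse epicardial cell line, cells of the outer layer of the heart, cultured with serum. The control group (EV, 3 libraries) received an empty-vector lentivirus. The knockout group (KO, 3 libraries) received a lentivirus carrying a guide RNA against Hdac3, an enzyme that removes acetyl groups from histones, for CRISPR/Cas9 editing. Whether the KO cells were a clone or a pool, and whether replicates were separate cultures, is not given in the labels, so each p-value reflects only how far these libraries differ, a spread that may be technical. Small-RNA libraries do not measure Hdac3 mRNA or epicardial mRNA markers, so neither the knockout nor the cell label was checked.

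A microRNA is cut from a hairpin precursor first by Drosha and then by Dicer, which leaves a duplex of a 5p and a 3p arm. One arm is loaded into an Argonaute protein and pairs with target mRNAs mainly through its seed, bases 2 to 8. miR-199a and miR-214 are made in part from Dnm3os, a noncoding transcript of mesenchymal cells known to be driven by Twist1. In the heart, miR-214 is known for protecting cardiomyocytes from calcium overload, miR-199a-5p for repressing Hif1a and Sirt1, and miR-199a-3p for promoting cardiomyocyte proliferation. These are roles from other work and were not measured here.

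The mature sequences are shown because they decide which hairpins each row can report on. RefSeq's table for GRCm38.p6 held mature entries for 4 of the 5 members. Capitals mark the seed, and sequences run 5′ to 3′.
miR-199a-5p: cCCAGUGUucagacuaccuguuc
miR-199a-3p: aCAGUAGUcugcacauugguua
miR-214-5p: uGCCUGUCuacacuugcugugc
miR-214-3p: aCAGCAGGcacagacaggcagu
These 4 members have 4 different seeds, so no pair among these 4 belongs to 1 seed family. The remaining member, miR-199b-5p, had no mature entry, so its seed was not read from the table. The stretch of the Mir199b hairpin that matches miR-199a-5p differs from it only at base 10, outside the seed. An arm with the same 5′ end would therefore share the seed CCAGUGU with miR-199a-5p. Apart from miR-199b-3p, which has the miR-199a-3p sequence, the only other mature entry of the table sharing a seed was miR-761. It has the seed of miR-214-3p. Neither miR-761 nor miR-199b-3p is a row of the count table.

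The hairpins are shown with the 2 arm stretches in capitals, because the miR-199 hairpins are alike there and differ around them.
Mir199a-1: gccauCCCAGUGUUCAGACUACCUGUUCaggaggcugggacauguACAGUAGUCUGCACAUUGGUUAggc
Mir199a-2: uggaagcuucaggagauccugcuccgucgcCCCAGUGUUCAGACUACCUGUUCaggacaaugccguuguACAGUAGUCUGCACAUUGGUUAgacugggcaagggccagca
Mir199b: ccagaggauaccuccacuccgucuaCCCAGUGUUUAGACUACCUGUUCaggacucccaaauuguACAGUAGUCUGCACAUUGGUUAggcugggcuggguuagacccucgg
Mir214: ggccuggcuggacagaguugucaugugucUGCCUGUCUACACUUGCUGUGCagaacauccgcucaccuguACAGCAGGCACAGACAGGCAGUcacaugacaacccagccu
The miR-199a-3p sequence occurs in 3 of these hairpins, Mir199a-1, Mir199a-2 and Mir199b, and RefSeq lists the same 22 bases as miR-199b-3p. The count table has no row of that name, so the miR-199a-3p row can hold reads from all 3 hairpins. The miR-199a-5p sequence occurs in Mir199a-1 and Mir199a-2. In Mir199b the stretch at the same place matches it at 22 of 23 bases, with the substitution C10U, counted from 1 at the 5′ end of miR-199a-5p. The sources used here do not say how reads matching more than 1 of these were assigned. The 2 arms of miR-214 occur in 1 hairpin of the table only.

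All coordinates are GRCm38, the assembly of the mm10 build named in the submitters' processing notes. Mir199a-2 (chr1:162217814-162217923) and Mir214 (chr1:162223368-162223477) lie on the plus strand, with 5444 bases between them. Both overlap annotated exons of Dnm3os (chr1:162217623-162225550), and both lie in introns of Dnm3, which runs on the opposite strand. Mir199b (chr2:32318460-32318569, plus strand) lies in introns of Dnm1, and Mir199a-1 (chr9:21496495-21496564, minus strand) in introns of Dnm2, each opposite to its host gene. Each of the 4 hairpins therefore sits antisense within a gene of the dynamin family, which encodes GTPases of membrane scission. Only the miR-214 rows can be tied to the Dnm3os locus by sequence.

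Of the 5 members none was called as changed in KO cells. All 5 had lower means in KO, with log2 changes of -0.42 to -0.09 (KO over EV), and all 5 95% intervals spanned 0. The comparison asks which microRNAs differ when Hdac3 is targeted. It was made with edgeR's quasi-likelihood test, two-sided, with Benjamini-Hochberg adjustment over all 460 microRNAs, and a microRNA is called at an adjusted p under 0.05. Among all microRNAs tested, 7.61% were called (35 of 460), and of the members 0 were called higher and 0 lower. At an unadjusted p under 0.05 there were 0 members, against 10.4% of all tested that were lower at that p. DESeq2 and limma-voom called 0 members too, against 11.3% and 8.26% of the microRNAs they tested. The median log2 change of the members was -0.16, against -0.01 over all tested, and 5 of 5 were below 0 where 51.7% of all tested were. Arms of 1 hairpin and hairpins of 1 transcript are not independent, so these 5 are fewer than 5 separate observations. The authors' deposited table of 78 microRNAs lists 0 of the members.

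Libraries held 11824881 to 13412774 counts. Levels are CPM, counts per 1000000 of effective library size (the total times a TMM scaling factor), given in the order of replicates 1, 2 and 3, and 1 read was worth 0.0637 to 0.0892 CPM. miR-21a-5p took 63.0% to 70.1% of the counts in each library, and the 5 members together took 0.751% to 0.929% in EV and 0.638% to 0.680% in KO. In CPM the members summed to 7579, 7246 and 8281 over the EV replicates and to 6943, 6897 and 7067 over the KO replicates. The KO sums all lay below the EV sums, and miR-199a-5p and miR-199a-3p supplied most of both. Each of those rows taken alone overlapped between the groups. Of single tested microRNAs 13.9% had KO entirely below EV in CPM. Each member had at least 822 reads in each library. Libraries EV 3 and KO 2 stood apart in miR-451a of red blood cells, at 54.7 and 62.7 CPM against 0.243 to 2.45 CPM elsewhere. The member calls, the changes of miR-199a-5p and miR-199b-5p and the arm change of miR-199a are given below without both. Read shares and the ratio of miR-214 to miR-199a were recomputed only with 1 library left out at a time.

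miR-199a-5p was the most abundant member, rank 16 of the 460 tested by mean CPM. Its EV replicates had 4446, 4125 and 5255 CPM, and its KO replicates 4036, 4000.2 and 4324 CPM. EV 3 was the highest library, and KO 3 exceeded EV 2, so the groups overlapped. The means were 4609 ± 582 CPM in EV and 4120.1 ± 178 CPM in KO (SD, n = 3 each). The log2 change was -0.16 (SE 0.10, 95% interval -0.38 to 0.06), with an edgeR adjusted p of 0.341. The lower bound of that interval corresponds to a level 1.30-fold higher in EV. Without EV 3 the log2 change was -0.06 (SE 0.08, edgeR adjusted p = 0.653), and without EV 2 it was -0.26 (SE 0.09, edgeR adjusted p = 0.168). These were the extremes among fits that left out 1 library. With EV 3 and KO 2 both left out it was -0.03 (SE 0.11, edgeR adjusted p = 0.868).

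miR-199a-3p, the opposite arm, had the smallest difference, with a spread of 2.58% of its mean in EV and 6.25% in KO. Levels were 2387, 2473 and 2353 CPM for the EV replicates against 2354, 2314 and 2092.5 CPM for the KO replicates. KO 1 lay just above EV 3, and KO 3 was the lowest library. The means were 2404 ± 61.95 CPM in EV and 2254 ± 140.8 CPM in KO (SD, n = 3 each). The log2 change was -0.09 (SE 0.07, 95% interval -0.26 to 0.07, edgeR adjusted p = 0.470). A change beyond 1.19-fold lower in KO lies outside that interval. Without KO 3 the log2 change was -0.04, and without KO 1 it was -0.12, the extremes among fits that left out 1 library.

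**Figure D1:**
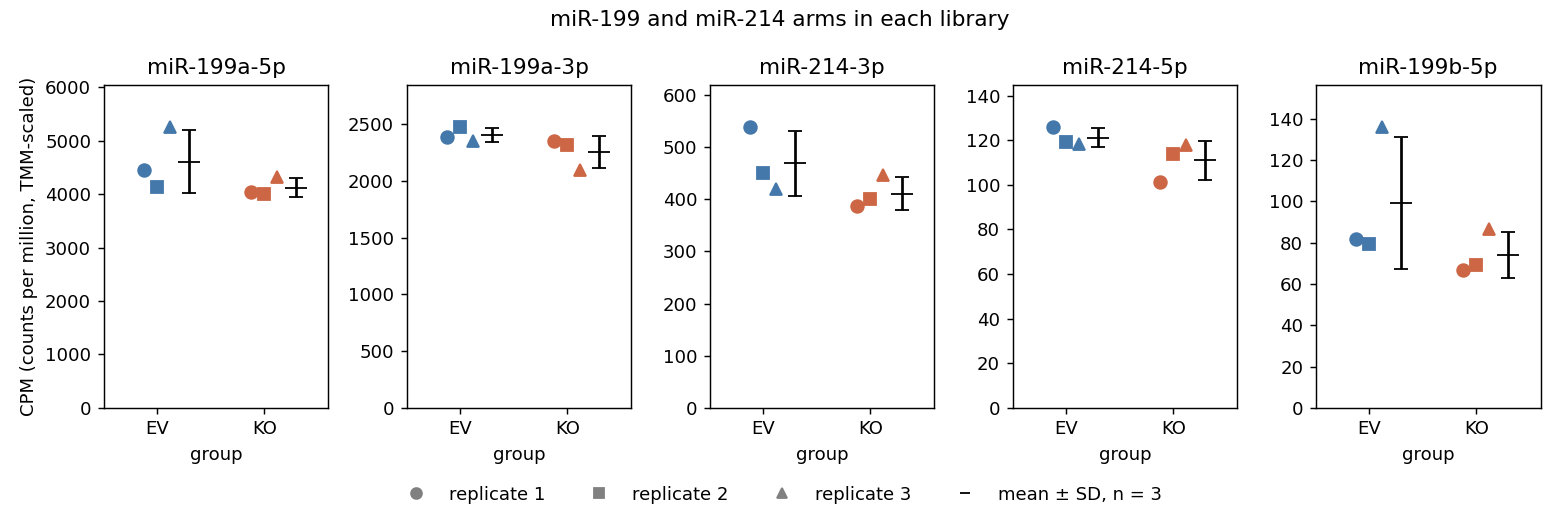
CPM of each miR-199 and miR-214 arm (vertical axis from 0, a separate scale for each arm) in the EV and KO libraries, with marker shape for the replicate number and bars for the mean ± SD (n = 3). EV 3 is the highest library for miR-199a-5p (5255 CPM) and miR-199b-5p (136 CPM), and EV 1 for both arms of miR-214. Only for miR-214-5p do all KO libraries lie below all EV libraries.

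miR-214-3p, known for repressing the histone methyltransferase Ezh2, measured 538, 449.7 and 419 CPM in the EV replicates. The KO replicates had 386, 399.5 and 446 CPM. EV 1 was high, and KO 3 lay above EV 3. The log2 change was -0.19 (SE 0.10, 95% interval -0.42 to 0.04, edgeR adjusted p = 0.288), from 469 ± 62.0 to 410.4 ± 31.4 CPM (SD, n = 3 each). Leaving out EV 1 gave -0.08 (SE 0.08, edgeR adjusted p = 0.658), and leaving out EV 3 gave -0.27 (SE 0.09, edgeR adjusted p = 0.0914). These were the extremes among fits that left out 1 library.

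miR-214-5p, the less abundant arm of the same hairpin, was the member whose groups did not overlap. The EV replicates had 125.9, 119.1 and 118.4 CPM, and the KO replicates had 101.0, 113.8 and 117.8 CPM. EV 3 lay barely above KO 3. The log2 change was -0.13 (SE 0.09, 95% interval -0.33 to 0.07, edgeR adjusted p = 0.430), from 121 ± 4.12 to 111 ± 8.78 CPM (SD, n = 3 each). Of all 460 tested microRNAs 13.9% had KO libraries entirely below EV libraries in CPM, so 1 member of 5 is near that share. Without KO 1 the log2 change was -0.06, and without KO 3 it was -0.17, the extremes among fits that left out 1 library.

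miR-199b-5p, named for the hairpin within Dnm1, had the lowest level of the members and the largest difference, with the largest spread. Across the EV replicates it had 82.0, 79.3 and 136 CPM, and across the KO replicates 66.6, 68.99 and 86.6 CPM. EV 3 lay far above the other EV libraries, which in turn lay below KO 3. The means were 99.2 ± 32.0 CPM in EV and 74.1 ± 10.9 CPM in KO (SD, n = 3 each). The log2 change was -0.42 (SE 0.20, 95% interval -0.88 to 0.04, edgeR adjusted p = 0.254). Without EV 3 it was -0.12 (SE 0.13, edgeR adjusted p = 0.546), and without EV 2 it was -0.57 (SE 0.21, edgeR adjusted p = 0.200). These were the extremes among fits that left out 1 library. Without both EV 3 and KO 2 it was -0.07 (SE 0.13, edgeR adjusted p = 0.780). The libraries with high miR-451a were EV 3 (54.7 CPM) and KO 2 (62.7 CPM), and they had 136 and 68.99 CPM of miR-199b-5p. Of the 7 rows of the blood list only miR-451a passed the filter on low counts, so the blood label rests on 1 row. Whether its level reflects blood RNA, and the part of blood RNA in the difference, was not tested. Without the filter on low counts, miR-199b-5p was called lower (log2 change -0.45, SE 0.12, edgeR adjusted p = 0.00891), the only call of a member among all fits run, in a fit that called 5.45% of all microRNAs.

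**Figure D2:**
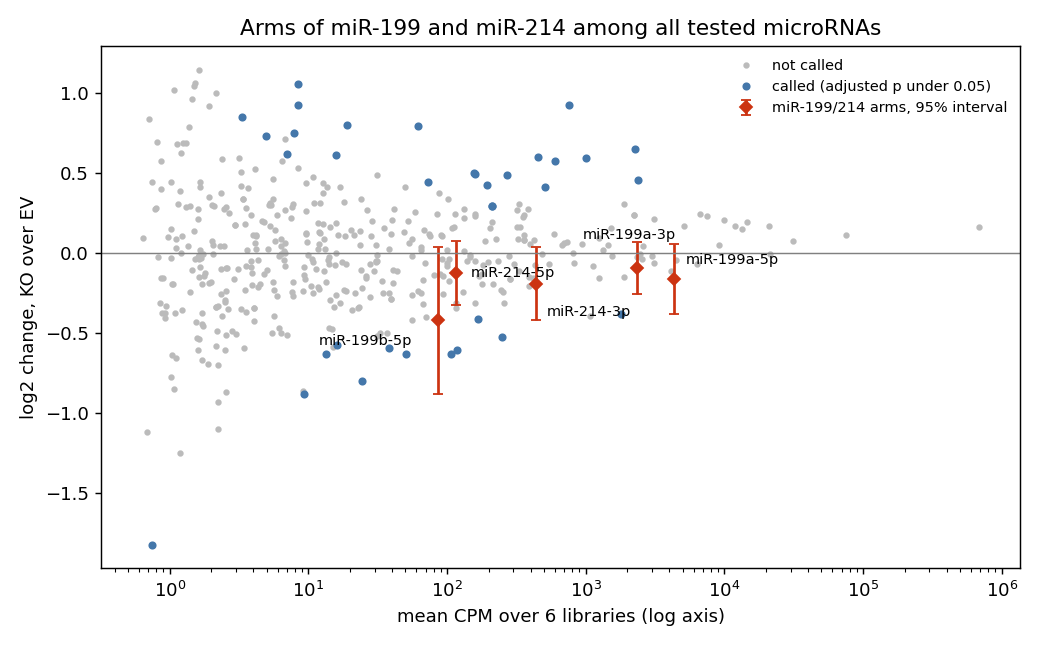
Log2 change of KO over EV (vertical axis) against mean CPM over the 6 libraries (horizontal log axis) for the 460 tested microRNAs, with the 35 called ones in blue and the 5 miR-199 and miR-214 arms as red diamonds with 95% intervals. All 5 diamonds lie below 0, and all 5 intervals cross it.

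The spread between libraries was larger than counting error for the members. For miR-199b-5p the spread in EV was 32.3% of the mean, against a counting error of 3.49% at its fewest reads. For miR-199a-5p the corresponding values were 12.6% and 0.448%, and for miR-214-3p 13.2% and 1.46%. For miR-214-5p the values were nearer each other, 3.40% in EV against 2.83%, but its spread in KO was 7.92%. In KO the spreads of the members ran from 4.32% (miR-199a-5p) to 14.8% (miR-199b-5p). The fewest reads of miR-199b-5p, miR-199a-5p and miR-214-5p were in KO 1, so the counting errors of their EV libraries were smaller than those given. These counting errors take reads as independent molecules, which PCR copies are not.

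The size of the differences depended on how libraries were scaled. The TMM factor of EV 1 was 1.23, and those of the other libraries were 0.919 to 1.04. In the deposited TPM, which are counts per 1000000 of the unadjusted total with no length term, the EV replicates of miR-199a-5p had 5451, 4274 and 4829.6. Its KO replicates had 3711, 3943 and 4087 TPM, so all KO libraries lay below all EV libraries. The same held for miR-199b-5p, at 82.2 to 125 TPM in EV and 61.3 to 81.9 TPM in KO, but not for the other 3 members. In TPM 18.5% of the 460 tested microRNAs had KO entirely below EV.

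With library size alone as the scaling in edgeR, the median log2 change of all microRNAs was -0.16 in place of -0.01. The members then lay between -0.54 for miR-199b-5p and -0.25 for miR-199a-3p, with a median of -0.31, and edgeR called 0 of them. Of all tested microRNAs 1.09% were called under that scaling. miR-199a-5p stood at -0.31 (SE 0.11, edgeR adjusted p = 0.155). The members' median minus the median of all microRNAs was -0.15 under both scalings. Library sizes without miR-21a-5p, a scaling chosen after the data were seen, gave a median of all microRNAs of -0.11 and a members' median of -0.26, again a difference of -0.15. There all 5 members had an unadjusted p under 0.05, as did 19.6% of all tested in the downward direction, and 0 members were called against 9.35% of all (smallest edgeR adjusted p of a member 0.105).

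**Figure D3:**
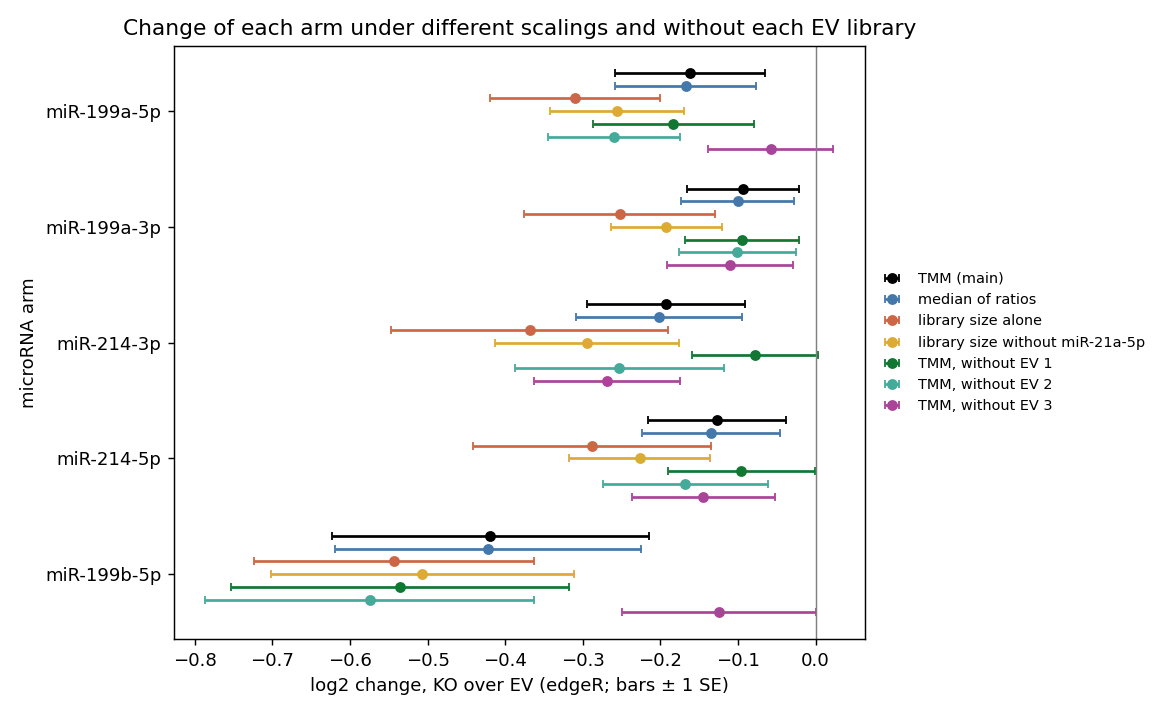
Log2 change of KO over EV (horizontal axis, bars ± 1 SE) for each miR-199 and miR-214 arm under 4 library scalings and without each EV library. The estimates lie below 0 in each of the fits drawn, and farther from 0 with library size alone than with TMM. They lie close to 0 for miR-199a-5p (-0.06) and miR-199b-5p (-0.12) without EV 3 and for miR-214-3p (-0.08) without EV 1. Without EV 2 they are -0.26 for miR-199a-5p and -0.57 for miR-199b-5p.

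Ratios between members do not depend on library scaling. Within the miR-199a rows the 3p arm held 34.9%, 37.5% and 30.9% of the reads in the EV replicates and 36.8%, 36.7% and 32.6% in the KO replicates. The 5p arm was thus read 1.67 to 2.23 times as often as the 3p arm, although the 3p row can draw on 1 more hairpin. The KO mean exceeded the EV mean by 0.922 percentage points (34.4% ± 3.30 in EV, 35.4% ± 2.39 in KO, SD, n = 3 each, exact two-sided permutation p = 0.7). The third replicate of each group had the lowest share.

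In miR-214 the 3p arm was the main one, with 81.0%, 79.1% and 78.0% of the reads in the EV replicates and 79.3%, 77.8% and 79.1% in the KO replicates. The arm that dominated was therefore 5p for miR-199a and 3p for miR-214, in each of the 6 libraries. The group means differed by less than the SD of EV (79.4% ± 1.57 in EV, 78.7% ± 0.782 in KO, n = 3 each, exact permutation p = 0.7). limma's diffSplice, fitted over 266 arms of all hairpins with both arms tested, gave a 3p change relative to 5p of log2 0.06 (SE 0.13) for miR-199a and -0.06 (SE 0.15) for miR-214. Neither was called (diffSplice adjusted p = 0.998 for each), and 0% of the 266 arms were.

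The count table has 1 arm of miR-199b, so no arm share was computed for it. miR-199b-5p made up 1.81%, 1.89% and 2.52% of the combined miR-199a-5p and miR-199b-5p reads in the EV replicates, against 1.62%, 1.70% and 1.96% in the KO replicates. EV 3 had the highest share and KO 3 exceeded EV 1 and EV 2. The means were 2.07% ± 0.391 in EV and 1.76% ± 0.179 in KO (SD, n = 3 each, exact permutation p = 0.3). There were 38.6 to 60.6 miR-199a-5p reads for each miR-199b-5p read.

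miR-199a-5p and miR-214-3p, the main arms of the hairpins within Dnm3os, had a ratio whose group means differed by less than the SD of either group. There were 8.26, 9.17 and 12.5 miR-199a-5p reads per miR-214-3p read in the EV replicates, and 10.5, 10.01 and 9.70 in the KO replicates. The KO libraries lay close together and inside the EV range. The log2 ratio of miR-214-3p to miR-199a-5p was -3.30 ± 0.31 in EV and -3.33 ± 0.05 in KO (SD, n = 3 each, exact permutation p = 0.9). Since miR-199a-5p can also come from Mir199a-1, this is a ratio of rows and not of the 2 hairpins of Dnm3os alone. These were 4 comparisons of shares and ratios, each with a Benjamini-Hochberg adjusted exact permutation p of 0.9, and 3 libraries against 3 cannot give an exact p below 0.1.

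**Figure D4:**
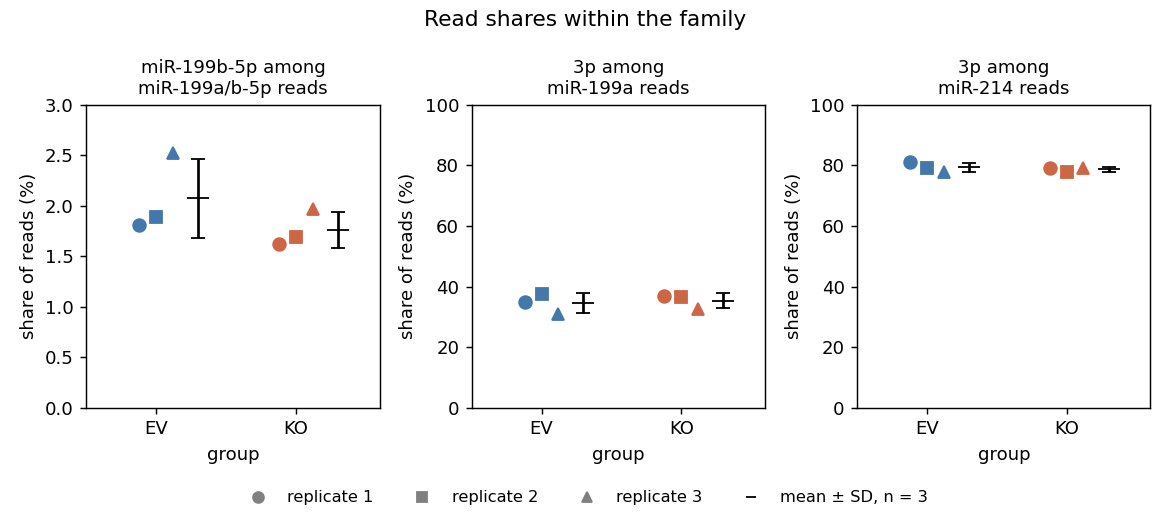
Share of reads (%, vertical axis) in each EV and KO library for miR-199b-5p among miR-199a-5p and miR-199b-5p reads (axis to 3%), for the 3p arm of miR-199a and for the 3p arm of miR-214 (axes to 100%), with bars for the mean ± SD (n = 3). The groups overlap in each panel, and EV 3 has the highest miR-199b-5p share, 2.52%.

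Across the 6 libraries the members did not share 1 pattern. miR-199a-5p and miR-199b-5p were both highest in EV 3, and in each group the third replicate had the highest CPM of both. Their centred log2 CPM had a Pearson r of 0.976. How reads were divided between these near-identical sequences is not known, so these rows may not be independent measurements. Both arms of miR-214 were highest in EV 1 and lowest in KO 1. miR-199a-3p was highest in EV 2 and lowest in KO 3. The 5 non-members of at least 10 CPM most like the mean centred log2 CPM of the members, out of 244, were miR-299a-3p, miR-181b-5p, miR-181a-5p, miR-708-5p and miR-409-5p. Their Pearson r with it over 6 libraries were 0.949, 0.942, 0.940, 0.925 and 0.915, given as a description, since the points share libraries and scaling factors. Of these, miR-181b-5p and miR-708-5p were called lower in KO, with log2 changes of -0.41 (SE 0.09) and -0.58 (SE 0.14). Among all tested, 12 of 460 were called lower. The members' mean profile is itself lower in KO, so lower values in microRNAs picked for likeness to it follow from the choice.

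Other microRNAs of mesenchymal cells and extracellular matrix were taken as miR-21a, miR-143, miR-145a, the miR-29 family, miR-140 and miR-455. Of 15 tested arms, 0 were called higher, 1 was called lower and 14 were not called, with a median log2 change of 0.12. The one called was miR-455-5p, a cartilage microRNA, at 130 ± 16.2 CPM in EV and 83.9 ± 1.33 CPM in KO (SD, n = 3 each; edgeR adjusted p = 0.00777). The most abundant, miR-21a-5p, had a log2 change of 0.16 (SE 0.18). miR-143-3p, an abundant microRNA of smooth muscle and fibroblasts, stood at 72335 ± 1119 CPM in EV and 78255 ± 3365 CPM in KO (SD, n = 3 each). It was not called, at log2 0.11 (SE 0.10).

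Among microRNAs of other cell types, the epithelial, endothelial and muscle lists each had KO sums entirely below EV sums. Of single tested microRNAs 13.9% lay this way in CPM. The epithelial list (miR-200 family, 5 tested) summed to 44.3 to 52.3 CPM in EV and 26.7 to 29.5 CPM in KO. In it 2 rows were called lower, where 12 of all 460 tested were. Its most abundant row was miR-200b-3p, at 30.7 and 17.7 CPM. The endothelial list (3 tested) summed to 39.7 to 45.1 CPM in EV and 37.6 to 39.0 CPM in KO. Its main member miR-126a-3p had a log2 change of -0.17, while miR-126a-5p and miR-126b-3p had 0.17 each, which is also the list median. The values of miR-126a-5p and miR-126b-3p were equal in each library. The list median and sum thus count the same values under both names. The muscle list (2 tested) summed to 26.3 to 27.4 CPM in EV and 21.2 to 25.1 CPM in KO. Its main member miR-206-3p had a log2 change of -0.35, and miR-1a-3p had 1.06 at 0.99 and 2.05 CPM, so the list median was 0.36. None of these was called. Blood microRNAs summed to 1.08 to 55.1 CPM in EV and 0.486 to 63.3 CPM in KO, and neural ones, led by miR-9-5p, to 11.9 to 53.1 and 16.1 to 59.0 CPM. No row of these lists was at 0 in every library. Their part in the differences of the miR-199 and miR-214 members was not tested.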

How the data were processed

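The authors' deposited read counts of 1028 mature microRNAs in 3 EV and 3 KO libraries were used. Per the labels' protocols, total RNA was adaptor-ligated at both ends and size-selected on a gel. Per the submitters' processing notes, Bowtie, mm10 and DESeq 1.8.3 were used. The deposited TPM equal counts scaled to 1000000 per library, to within 3.49e-10. The authors' deposited comparison table gives group means (a signal), log2 fold changes and p-values, and was used only to see whether members are listed.

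The counts were fitted with edgeR 4.0.16 in R 4.3.3 (TMM factors, filterByExpr with a minimum count of 10 and total of 15, quasi-likelihood test, Benjamini-Hochberg adjustment over all tested). Intervals are 95%. Arms were compared with limma 3.58.1 (voom, diffSplice), and shares by exact permutation. DESeq2 1.42.0 and limma-voom were alternatives. Scripts were tested on simulated data. Within groups, no pair of libraries agreed within counting noise, the smallest chi-square being 9040 on 459 degrees of freedom (KO 1 and KO 3). The members and lists were chosen with earlier results of these data known. The named microRNAs are the members, their seed mates, the 5 most alike and the most abundant row of each list. From the mesenchymal and matrix list the called row is named too. Named besides these were miR-143-3p, miR-126a-5p, miR-126b-3p and miR-1a-3p.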

Additional observations from a re-analysis of the deposited data

How the results depend on the processing

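In 16 other fits of the 5 members, all 80 log2 changes were below 0 and 1 was called. That call, 1 member in place of 0, came without the filter, where 56 of 1028 microRNAs were called. Leaving out 1 library at a time gave 0 called members each time, where 3.16% (without KO 2) to 12.3% (without EV 3) of all tested were called, and without EV 3 and KO 2 together 0 members against 18.7%. The 3p against 5p change then ran from -0.053 to 0.156 (log2) for miR-199a and from -0.119 to 0.018 for miR-214. It was -0.093 for miR-199a without EV 3 and KO 2 together, a change of sign. The 3p share difference ran from -0.838 to 2.44 percentage points for miR-199a and from -1.33 to 0.216 for miR-214. The miR-199b-5p share difference ran from -0.444 to -0.0879, and the log2 ratio difference of miR-214 to miR-199a from -0.207 to 0.094. The signs of these 3p and ratio differences changed with the library left out. With both arms summed the ratio difference was -0.040.

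With the replicate number as a block, edgeR called 0 members and 34 microRNAs in all, miR-199b-5p standing at -0.38 (SE 0.14, edgeR adjusted p = 0.0950), and the arm changes were 0.06 and -0.06. Correlations of same-numbered libraries' deviations ran from -0.52 to 0.36, and 0 of 6 libraries correlated best with their own number, so the numbers were not taken as pairs. The best matches were across numbers: EV 3 with KO 2 (r = 0.63), EV 1 with KO 3 (0.57) and EV 2 with KO 1 (0.54). What these matches reflect was not tested, and no fit used them as blocks. Merging rows of 1 mature sequence was not run, since no 2 members with a sequence share it. At its fewest reads a member's counting error was 0.448% to 3.49%.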
